A study of Schizosaccharomyces pombe with 88 samples.

Results

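The genes described here are 67 ribosome biogenesis genes of the fission yeast Schizosaccharomyces pombe, chosen by name: every gene whose single platform symbol begins with utp, nop, rrp, noc or rpa followed by a digit, together with gar1, gar2 and fib1. They are 67 of 4928 genes tested, and each was read by 2 probes, 134 in all. Ribosome biogenesis begins in the nucleolus, where RNA polymerase I copies the ribosomal RNA precursor. The small subunit processome, guided by box C/D and box H/ACA small nucleolar ribonucleoproteins (snoRNPs), folds, modifies and cuts that precursor, the RNA exosome trims it, and further factors assemble the large subunit. In yeasts the genes of this pathway are known to be transcribed as one regulon that is high in fast growth and low under stress.

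By role, 5 of the genes encode subunits of RNA polymerase I, 29 belong to the small subunit processome, 3 to the box C/D snoRNP, 2 to the box H/ACA snoRNP, 8 to the exosome and 16 to large subunit assembly. A further 2, rrp1 and rrp2, came in by name alone: in S. pombe they are DNA translocases of the Swi2/Snf2 family. They have a role of their own here but stay in every count and median over the whole set, which was not recounted without them. The last 2 are gar2, a nucleolin-like nucleolar protein, and noc12. Many of these roles are known from budding yeast.

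Cultures of rad3, cds1 and chk1 mutants and of wild type (WT) were made synchronous by elutriation, which collects small cells in early G2, and were sampled with 8 mM hydroxyurea (HU) and untreated at 40, 80, 120, 160 and 200 min, after a common untreated start at 0 min. HU stops DNA replication by starving cells of deoxyribonucleotides. Rad3, a relative of ATR, is the kinase that starts the checkpoint response; Cds1 acts below it when replication stalls, and Chk1 when DNA is damaged. The mutant alleles are not described in the labels, all cultures were grown at the same temperature, and each strain and arm is 1 culture as far as the labels say. Each of the 44 conditions was hybridised on 2 arrays (technical repeats) against the same reference, asynchronous untreated WT cells in mid-log growth. Values are log2 ratios of sample to reference, so that a level of 0 equals the reference and a difference of 1 is 2-fold.

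Array repeats were averaged, and conditions served as the units of the tests. The arrays labelled chk1 at 120 min in both arms and at 200 min with HU matched WT arrays (r over genes between 0.926 and 1), and these 6 of 88 arrays were left out. In the pair of WT with chk1, WT therefore stands alone at 120 and 200 min. The rad3 gene lay between -2.81 and -2.45 in the conditions of the rad3 mutant, against -0.89 to 0.085 in WT, and the cds1 gene between -3.22 and -2.70 in the cds1 mutant, against -0.20 to 1.30 in WT. The chk1 gene ranged from -1.55 to -0.53 in conditions labelled chk1 and from -0.83 to 0.16 in WT, and these ranges overlap. The overlap comes from HU at 160 min (-0.53 in the culture labelled chk1, against -0.83 in WT), so counts at 160 min are also given without chk1. Both arrays of that condition held the same value, to 6 significant digits, for 48 of the 67 genes and differed by at most 0.0018, and they count as 1 sample. Between array repeats the median absolute difference over the 67 genes had a median of 0.15 in rad3, 0.046 in cds1, 0.020 in chk1 and 0.18 in WT. These medians cover all 11 conditions of each strain, including those left out of chk1. Array medians of the 82 arrays used lay between -0.154 and 0.044. The number of arrays limits the precision.

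The first question was how these genes moved through the time course without HU. Most were at their lowest at the start and at their highest at 40 or 80 min. Of the 67 genes, 47 had their lowest mean over strains at 0 min, 39 had their highest at 40 min and 16 at 80 min. These times were not counted over all genes tested, so the counts describe the 67 genes alone. The median level over the genes at 0 min was -0.16 in rad3, 0.0091 in cds1, -0.21 in chk1 and -0.16 in WT. At 40 min it was 0.34 in rad3, 0.52 in cds1, 0.38 in chk1 and 0.45 in WT, above the start in each of the 4 strains.

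**Figure D1:**
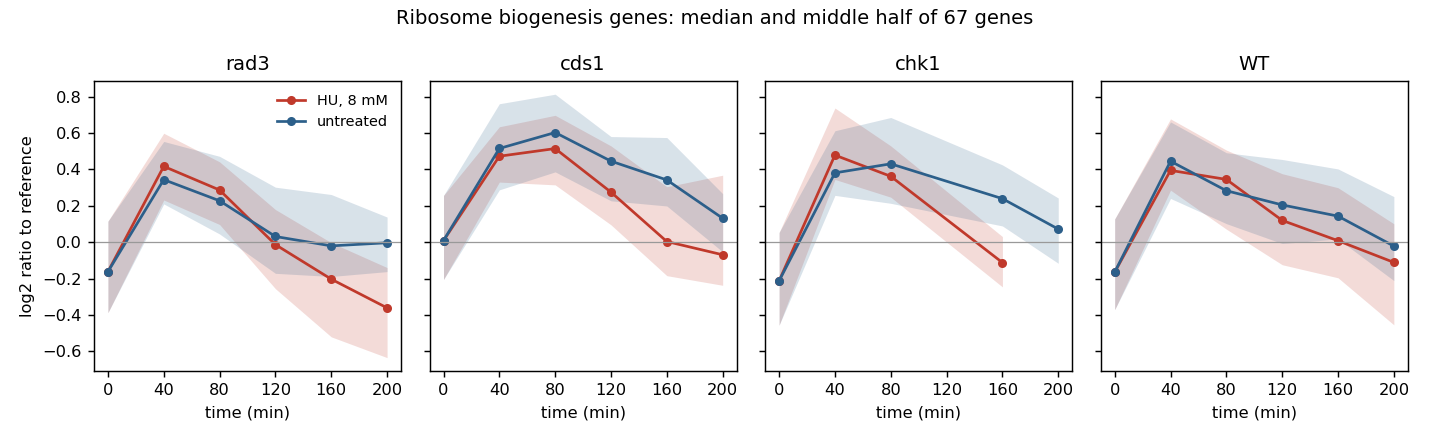
Median log2 ratio to the reference (line and points) and interquartile range (shading) of the 67 ribosome biogenesis genes by time in min, 1 panel per strain, with HU in red and untreated in blue; both arms share the start at 0 min, and the conditions left out of chk1 have no point. The medians rise by 40 min in every panel, and at 160 min the HU median lies below the untreated one in all 4 strains.

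Between 0 and 40 min, 59 of the 67 genes rose and 4 fell (limma, Benjamini-Hochberg over all genes tested, adjusted p under 0.05), where 37.6% of all genes tested rose and 30.1% fell. The median difference, 40 minus 0 min, was 0.55 on the log2 scale over these genes and 0.048 over all genes tested. Of 91 other measured genes of the pathway, taken from a written list, 80 rose and 3 fell, with a median difference of 0.61. Ribosomal protein genes moved the same way, with 119 of 126 higher, 1 lower and a median difference of 0.71. Of 20 environmental stress genes 15 fell and none rose, with a median difference of -1.95. The part of that stress signal in the step of the ribosome biogenesis genes was not tested, and the interval since elutriation and the position in the cell cycle cannot be told apart at 0 min. In bulk cultures fewer cells of one stage and less RNA per cell cannot be told apart either.

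All 5 RNA polymerase I genes rose at this step. The rpa12 gene, for a small subunit that takes part in RNA cleavage, was at 0.34, 0.42, 0.19 and 0.43 at 40 min in rad3, cds1, chk1 and WT, against -0.51, -0.44, -1.12 and -0.86 at 0 min in the same order of strains. Its levels at the 2 times did not overlap, and the difference was 1.08 ± 0.13 (SE, adjusted p = 3.8e-07, limma). The rpa2 gene, for a catalytic core subunit, rose by 0.75 ± 0.073 (SE). The other 3 were rpa43 at 0.96, rpa34 at 0.71 and rpa49 at 0.65, all larger than the median difference of all genes.

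In the small subunit processome 25 of 29 genes rose. The largest rise of all 67 genes was that of utp25, a processome factor, which averaged 0.41 ± 0.10 at 40 min and -0.73 ± 0.22 at 0 min (SD, n = 4 strains), a difference of 1.14 ± 0.10 (SE, adjusted p = 7.6e-09, limma). Next came rrp36 at 0.91 and utp6 at 0.90. The rrp5 gene, whose budding yeast product is needed for both subunits, rose by 0.55 ± 0.085 and utp5, of the subcomplex that binds the nascent precursor, by 0.62 ± 0.074 (SE). The processome genes utp3, rrp9 and utp11 did not pass the test, with differences of -0.021, 0.19 and 0.079.

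All 5 snoRNP genes rose. The fib1 gene, for the methyltransferase fibrillarin of the box C/D snoRNP, was at 0.31, 0.52, 0.60 and 1.07 at 40 min in rad3, cds1, chk1 and WT, against -0.39, -0.42, -0.71 and -0.051 at 0 min, and its levels did not overlap. The difference was 1.02 ± 0.12 (SE, adjusted p = 2.7e-07, limma). Its partners nop56 and nop58 rose less, by 0.54 ± 0.17 and 0.41 ± 0.092. In the box H/ACA snoRNP, which guides pseudouridylation, gar1 rose by 0.94 ± 0.13 and nop10 by 0.98 ± 0.10 (SE).

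All 8 exosome genes were called higher. The ring subunit gene rrp43 had the largest rise, 1.09 ± 0.098 (SE), and the cap subunit gene rrp4 the smallest, 0.29, a mean of probes that disagree (0.66 and -0.086). The rrp43 level averaged 0.18 ± 0.11 at 40 min and -0.91 ± 0.16 at 0 min (SD, n = 4 strains). The nuclear exonuclease gene rrp6 rose by 0.61 ± 0.083 (SE). In large subunit assembly 14 of 16 genes rose, led by nop12 at 1.02, rrp16 at 0.99 and nop52 at 0.95. The gar2 gene rose by 0.92 ± 0.15 and noc12 by 0.46 ± 0.065 (SE).

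The 4 genes that fell were rrp2, noc4, rrp17 and nop8. The DNA translocase gene rrp2 was at -0.14, -0.28, -0.48 and -0.34 at 40 min in rad3, cds1, chk1 and WT, against 0.33, 0.28, 0.50 and 0.25 at 0 min. It was lower at 40 min in all 4 strains, by -0.65 ± 0.082 (SE, adjusted p = 7.7e-07, limma), while rrp1 differed by 0.091 and did not pass. For rrp17, whose budding yeast product is an exonuclease of the large subunit precursor, the difference was -0.38 ± 0.078, and under quantile normalization it was -0.043 (adjusted p = 0.71). The values of noc4 (-0.63) and nop8 (-0.23) are means of probes that disagree, as described further on. The call of nop8 was lost without WT (adjusted p = 0.059), without chk1 (adjusted p = 0.14) and without array repeat 1 (adjusted p = 0.078). Among genes that rose, rrp12 (0.36) lost its call without array repeat 1, with 0.29 and an adjusted p of 0.11, and noc202 (0.30) without array repeat 2, with 0.18 and an adjusted p of 0.10.

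**Figure D2:**
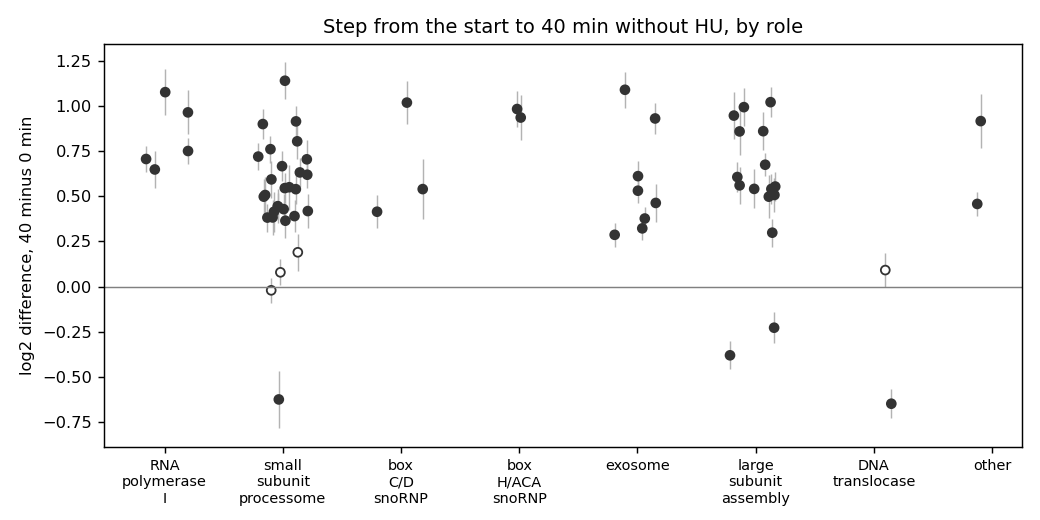
Difference in log2 ratio between 40 and 0 min without HU for each of the 67 genes, by role; bars are standard errors and filled points passed the test at an adjusted p under 0.05. Of 67 points, 59 are filled and above 0 and 4 are filled and below 0.

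From 40 min on the genes drifted down in small steps. Between 40 and 80 min limma called none of the 67 (8.24% of all genes tested were called), with 7 at an unadjusted p under 0.05. Between 80 and 120 min 13 fell and none rose, where 6.07% of all genes fell and 5.05% rose, and the median difference was -0.14 (-0.0095 over all genes). Between 120 and 160 min 1 gene, rrp4, fell by 0.31 (adjusted p = 0.014), where 3.08% of all genes fell; its probes disagree, and the count was 0 without array repeat 1 or without any 1 strain. Between 160 and 200 min 6 fell, where 1.4% of all genes fell, with a median difference of -0.15 (0.0050 over all genes). Of the other 91 pathway genes 16 fell at 120 min and 9 at 200 min, while 1 of 126 ribosomal protein genes fell at 120 min and none at 200 min (11 at an unadjusted p under 0.05, limma). The median difference of the ribosomal protein genes was 0.14 at 120 min. At 200 min it was -0.16, near that of the 67 genes, with 118 of 126 below 0 against 62 of 67. The 2 sets thus differed at 200 min in calls and not in median.

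The genes that fell at 120 min included 3 exosome genes, rrp45 (-0.42), rrp40 (-0.35) and rrp46 (-0.34). In the processome they were utp25 (-0.41), utp4 (-0.33), rrp3 (-0.32), utp5 (-0.30) and nop14. In large subunit assembly they were rrp14 (-0.45), rrp8 (-0.38), noc3 (-0.32) and rrp1402, and noc12 completed the list with -0.25. None of the RNA polymerase I or snoRNP genes was among them. All 5 RNA polymerase I genes were still below 0, from -0.27 to -0.093, and their median of -0.14 was near that of the 67 genes. Of the snoRNP genes nop10, gar1, nop58 and fib1 differed by 0.017 to 0.15 and nop56 by -0.26. At 200 min the genes that fell were rrp3 (-0.46), utp23 (-0.39), nop9 (-0.34), nop2 (-0.29), rpa34 (-0.27) and utp16. The calls of these small steps depended on which cultures were fitted. The count at 120 min was 0 without WT, 5 without rad3, 1 without cds1, 6 without chk1 and 6 without array repeat 1. The count at 200 min was 1 without WT, without cds1 or without chk1, and 2 without array repeat 2. A fit without a strain has fewer conditions, and calls over all genes were not counted there. Loss of precision and a change in the step cannot be told apart by these counts.

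Over the whole course 64 of the 67 genes changed by the moderated F test over the 6 times, where 78.8% of all genes did. The 3 that did not pass were rrp1, rrp9 and utp11, with ranges of 0.33, 0.31 and 0.24 from the lowest to the highest time mean. From 40 min on, 48 of the 67 changed, where 40.7% of all genes did, and 65 of the other 91 pathway genes but 25 of 126 ribosomal protein genes. The 48 included 25 of 29 processome genes, 12 of 16 large subunit genes, 6 of 8 exosome genes and 3 of 5 polymerase genes. None of the 5 snoRNP genes was among them, nor at an unadjusted p under 0.05 (limma). Their time means still varied, as for nop56, which averaged 0.15 at 80 min and -0.33 at 200 min. Over all 67 genes the range of time means went up to 1.20, in rpa43 and nop10.

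The next question was what HU changed. Early on nothing passed: limma called none of the 67 genes at 40 min and none at 80 min in the mean of both pairs of strains (0% of all genes tested at either time), with 2 and 6 genes at an unadjusted p under 0.05. At 120 min 1 gene was lower, utp21 (-0.44 ± 0.088 SE, adjusted p = 0.024, limma), where 0.609% of all genes were lower. The call of utp21 at that time is one that several alternatives do not keep, since the count was 0 without rad3, without cds1, without chk1 or without array repeat 1. By then 32 of the 67 genes were below their untreated level in each of the 3 strains measured, and 3 were above it in each. That count was not made over all genes. In the mean of both pairs 59 of the 67 genes and 2513 of 4927 genes tested were below 0, most of them without a call.

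At 160 min 34 of the 67 genes were lower with HU and 1 was higher in the mean of both pairs, where 21.3% of all genes were lower and 22.9% higher. The median HU difference was -0.25 over these genes and 0.0044 over all genes tested. By strain it was -0.28 in rad3, -0.28 in cds1, -0.33 in chk1 and -0.14 in WT, and 38 of the 67 genes were below their untreated level in all 4 strains. The count by strain was not made over all genes. In the mean of both pairs 58 of the 67 genes and 2437 of 4927 genes tested were below 0. Among the other 91 pathway genes 44 were lower and 2 higher (median -0.22), and among 126 ribosomal protein genes 98 were lower and 2 higher (median -0.28). Of the 20 stress genes 16 were higher and 1 lower (median 0.66), and their part in the result was not tested. Cultures with HU and untreated cultures of the same time may differ in cell cycle position as well as in exposure, and these cannot be told apart. Whether the cells of each strain were held by HU was not measured here. Without chk1 24 genes were lower at 160 min in place of 34.

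In the processome 17 of 29 genes were lower at 160 min. The largest fall was that of utp21, a WD-repeat protein of the processome. Its levels at 160 min with HU were -1.50 in rad3, -1.35 in cds1, -1.36 in chk1 and -1.43 in WT, against -0.24, 0.15, 0.06 and 0.06 in the untreated cultures of these strains. The arms did not overlap, and single arrays ran from -1.62 to -1.34 with HU. The HU difference was -1.38 ± 0.10 in rad3 and cds1 (adjusted p = 1.6e-07) and -1.45 ± 0.10 in WT and chk1 (SE, adjusted p = 1.8e-07, limma). By 200 min the level with HU was back at -0.86 in rad3, -0.66 in cds1 and -0.95 in WT, and the difference was -0.57 ± 0.088 (SE) in the mean of both pairs.

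The rrp5 gene fell further with time. With HU it was at -1.02, -0.76, -0.83 and -0.77 in rad3, cds1, chk1 and WT at 160 min, against -0.09, 0.41, 0.25 and 0.09 untreated. At 200 min it was at -1.37, -1.42 and -1.40 in rad3, cds1 and WT with HU, against -0.07, -0.02 and -0.25 untreated. All HU cultures lay below all untreated ones at both times, with differences of -1.01 ± 0.077 at 160 min and -1.25 ± 0.095 at 200 min (SE, adjusted p = 9.8e-08 and 2.1e-07, limma). The rrp12 gene, whose budding yeast product helps export both subunits, was lower by 0.80 ± 0.071 at 160 min and 0.54 ± 0.087 at 200 min (SE). Further processome genes lower at 160 min were nop9 (-0.75 ± 0.095), utp24 (-0.52 ± 0.085), utp11 (-0.48 ± 0.092), utp6 (-0.46 ± 0.092) and rrp3 (-0.43 ± 0.079), and of these rrp3 and utp6 were also lower at 200 min, by 0.42 each.

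**Figure D3:**
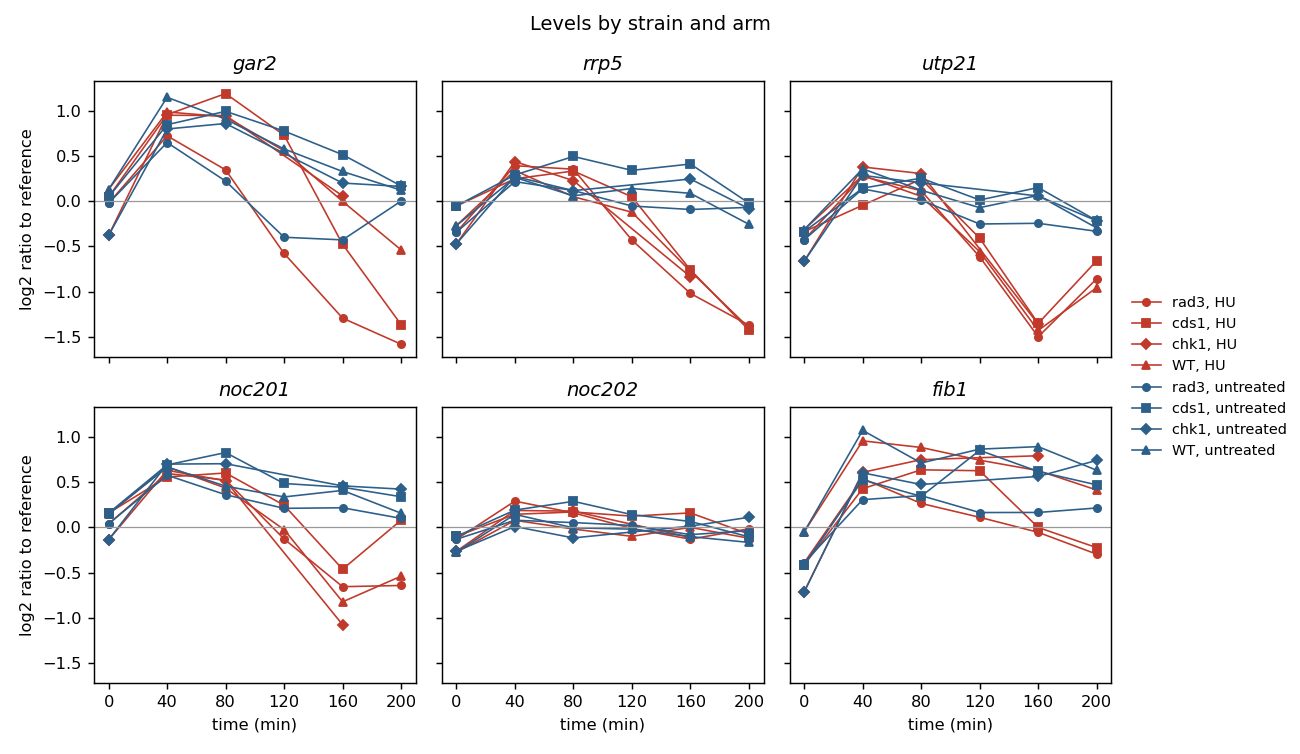
Log2 ratio to the reference by time in min for gar2, rrp5, utp21, noc201, noc202 and fib1, with HU in red and untreated in blue and a marker for each strain; each point is the mean of 2 array repeats of 1 culture. With HU, utp21 is at its lowest at 160 min in all 4 strains and rrp5 at 200 min in the 3 strains with that time, noc202 keeps close to its untreated level, and gar2 at 160 and 200 min lies lower in rad3 and cds1 than in WT.

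In large subunit assembly 7 of 16 genes were lower at 160 min, led by noc201. With HU its levels were -0.66, -0.46, -1.08 and -0.82 in rad3, cds1, chk1 and WT, against 0.22, 0.44, 0.46 and 0.41 untreated, with no overlap, and the HU difference was -1.14 ± 0.087 (SE, adjusted p = 9.8e-08, limma). The S. pombe genome has 2 genes named for the same budding yeast factor Noc2, which helps move the large subunit precursor to the nucleoplasm. The other, noc202, was at -0.13, 0.16, -0.11 and -0.0011 with HU in these strains, against -0.08, 0.06, 0.01 and -0.10 untreated, and the arms overlapped. Its difference was 0.0054 ± 0.077 (SE, adjusted p = 0.96, limma), and over all 18 pairs of conditions it stayed between -0.12 and 0.30. Their 2 HU differences were not tested against each other. At 200 min the level of noc201 in cds1 was 0.08 with HU, against 0.34 untreated, and its fall in rad3 and cds1 (-0.50 ± 0.12) lost its call without rad3 (-0.26, adjusted p = 0.25).

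Other pairs of genes named for one budding yeast factor differed less. For Utp5, utp5 was lower with HU by 0.37 ± 0.062 at 160 min and 0.34 ± 0.076 at 200 min, and utp502 had -0.17 ± 0.069 (adjusted p = 0.060) and -0.28 ± 0.085 (adjusted p = 0.019, limma). For Rrp14, neither rrp14 (-0.21 ± 0.086, adjusted p = 0.060) nor rrp1402 (0.062 ± 0.10) passed at 160 min. The rrp8 gene, for a methyltransferase of ribosomal RNA, was lower by 0.71 ± 0.10 at 160 min and 0.55 ± 0.12 at 200 min. The noc1 gene was lower by 0.48 ± 0.11 at 160 min (SE), and rrp17 differed by 0.075.

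Of the 5 RNA polymerase I genes 3 were lower with HU at 160 min, and the subunits were not tested against each other. At that time rpa34 (-0.50 ± 0.11), rpa43 (-0.40 ± 0.072) and rpa49 (-0.35 ± 0.082) were lower, while rpa2 had -0.095 ± 0.068 (adjusted p = 0.27) and rpa12 -0.0030 ± 0.094 (SE, adjusted p = 0.98, limma). By strain the HU difference of rpa34 was -0.45 in rad3, -0.32 in cds1, -0.99 in chk1 and -0.23 in WT. For rpa49 it was -0.41, -0.25, -0.58 and -0.17 in the same order. Both fell most in chk1, and neither gene was among those recomputed without chk1. In budding yeast Rpa34 and Rpa49 are partner subunits, and Rpa43 contacts the initiation factor Rrn3. The rpa43 levels at 160 min with HU were 0.01, -0.16, -0.09 and 0.21 in rad3, cds1, chk1 and WT, against 0.34, 0.35, 0.47 and 0.39 untreated, with no overlap. At 200 min rpa43 (-0.45 ± 0.089) and rpa49 (-0.32 ± 0.10) were lower.

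Of the 8 exosome genes 3 were lower at 160 min, all ring subunits: rrp42 (-0.48 ± 0.065), rrp45 (-0.37 ± 0.084) and rrp46 (-0.30 ± 0.11). By strain rrp46 had -0.41 in rad3, -0.12 in cds1, -0.68 in chk1 and -0.0069 in WT, so it hardly fell in WT. At 200 min rrp42 and rrp45 were lower, by 0.33 and 0.31. The nuclease gene rrp6 had -0.0014 ± 0.10 at 160 min and 0.13 ± 0.12 (SE) at 200 min. Of the snoRNP genes nop58 (-0.47 ± 0.087, adjusted p = 5.2e-04) and gar1 (-0.36 ± 0.078, adjusted p = 0.0016) were lower at 160 min, and fib1 (-0.22, adjusted p = 0.077), nop56 (-0.19) and nop10 (-0.11) did not pass (limma). At 200 min fib1, nop58, gar1 and nop10 were lower, by 0.41, 0.39, 0.46 and 0.29. The gar2 gene was lower by 0.58 ± 0.067 at 160 min and 1.11 ± 0.083 (SE) at 200 min, and its strains are compared further on.

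In all, 27 of the 67 genes were lower at 200 min and 1 was higher in the mean of both pairs, where 18.6% of all genes were lower and 16% higher, with a median difference of -0.24 over these genes and -0.018 over all genes tested. Of the 34 genes lower at 160 min, 22 were also lower at 200 min, which is 64.7% of the genes lower at 160 min and 81.5% of those lower at 200 min. The overlap of the 2 times was not counted over all genes tested. Ribosomal protein genes stood at a median of -0.47 by then, with 109 of 126 lower, while 21 of the other 91 pathway genes were lower (median -0.17), and 18 of 20 stress genes were higher (median 0.84). Without rad3 the count of 27 was 13, without array repeat 1 it was 14 and without array repeat 2 it was 17.

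A further question was whether strains without the Rad3 to Cds1 branch of the checkpoint responded like those with it. At 160 min 26 genes were lower and 1 higher in rad3 and cds1 (17.2% and 21.2% of all genes), and 20 were lower and 1 higher in WT and chk1 (10.5% and 9.88%). The 15 genes lower in both pairs were 57.7% of the rad3 and cds1 genes and 75% of the WT and chk1 genes. This overlap was not counted over all genes tested, so it cannot be called particular to these genes. They were noc1, noc201, nop9, rpa43, rpa49, rrp3, rrp5, rrp8, rrp12, rrp42, rrp45, utp11, utp18, utp21 and utp24. Without cds1 the count of 26 was 13, and the count of 20 was 5 without chk1, 10 without WT and 10 without array repeat 1. At 200 min 24 genes were lower and 1 higher in rad3 and cds1 (18.9% and 17% of all genes), or 8 without rad3. In WT alone 4 were lower, gar2, noc201, rrp5 and utp21, and 1 was higher (5.52% and 5.83% of all genes). That count of lower genes was near the share over all genes, so it is no sign of a response particular to these genes. A single culture gives a less precise difference than a pair does, so the counts in WT and in rad3 and cds1 cannot be set against each other.

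The difference between the pairs was tested itself, and for nearly all genes it did not pass. At 40, 80 and 120 min limma called none of the 67 (0.0406%, 0% and 0% of all genes), with 4, 1 and 0 genes at an unadjusted p under 0.05. At 160 min 3 of the 67 differed between the pairs, where 5.01% of all genes did, and at 200 min 2 differed, where 1.52% did. The 3 were gar2, rrp12 and noc4, and the 2 were gar2 and noc4. None of the 126 ribosomal protein genes differed between the pairs at 160 or 200 min, with 3 and 5 at an unadjusted p under 0.05 (limma). Of the 20 stress genes 5 were higher in rad3 and cds1 than in WT and chk1 at 160 min and 1 at 200 min (medians 0.40 and 0.39), and their part in the result was not tested.

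The gar2 gene had levels with HU at 160 min of -1.29 in rad3, -0.48 in cds1, 0.06 in chk1 and -0.0018 in WT, against -0.43, 0.51, 0.20 and 0.33 in the untreated cultures. Its HU difference was -0.93 ± 0.095 in rad3 and cds1 and -0.24 ± 0.095 in WT and chk1 (SE). The difference between the pairs was -0.69 ± 0.13 (SE, adjusted p = 0.0088, limma). At 200 min gar2 stood at -1.58 in rad3, -1.36 in cds1 and -0.54 in WT with HU, against 0.0016, 0.17 and 0.12 untreated. The HU difference was then -1.56 ± 0.095 in rad3 and cds1 and -0.66 ± 0.13 in WT, and the pairs differed by -0.90 ± 0.17 (SE, adjusted p = 0.014, limma). In rad3 the gene was already low without HU, at -0.40 at 120 min and -0.43 at 160 min, against 0.58 and 0.33 in WT. The sign held in each alternative, but the call at 160 min was lost without array repeat 1 (-0.61, adjusted p = 0.12), rad3 (-0.75, 0.056), cds1 (-0.63, 0.15) or chk1 (-0.60, 0.12). At 200 min it was lost without array repeat 1 (-0.85, 0.10), rad3 (-0.87, 0.097) or cds1 (-0.92, 0.070).

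The rrp12 gene fell by 1.11 in rad3, 1.07 in cds1, 0.45 in chk1 and 0.57 in WT at 160 min, each HU culture against its untreated one. The pairs differed by -0.58 ± 0.14 (SE, adjusted p = 0.027, limma) at 160 min and by -0.28 at 200 min (adjusted p = 0.46). Leaving out either array repeat or any 1 strain kept the sign, with -0.69 to -0.47, and lost the call, with adjusted p-values from 0.10 to 0.23. For the 3 genes with the largest falls at 160 min the difference between pairs did not pass. It was 0.076 ± 0.14 for utp21 and -0.078 ± 0.15 for rrp5, each within 1 SE of 0, and 0.49 ± 0.17 for noc201 (SE, adjusted p = 0.12, limma), with the larger fall in WT and chk1.

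**Figure D4:**
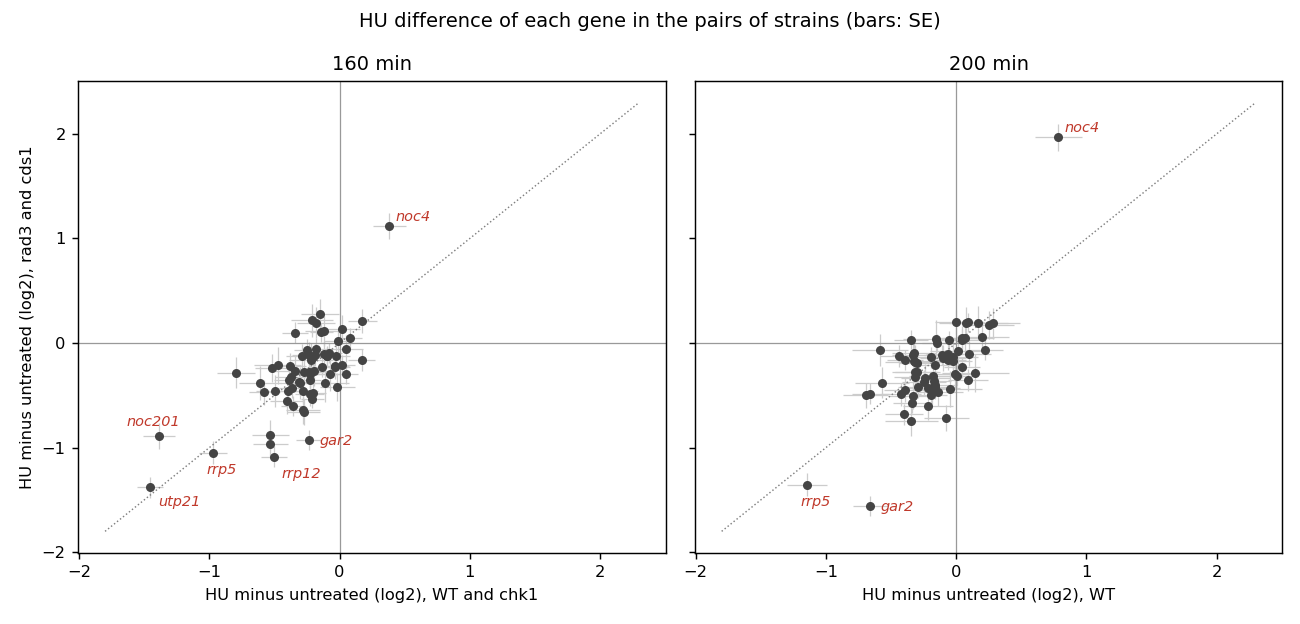
HU minus untreated difference (log2) of each of the 67 genes in rad3 and cds1 (vertical axis) against that in WT and chk1 (horizontal axis, WT alone at 200 min), at 160 and 200 min; bars are standard errors and the dotted line marks equal differences. Most genes lie below 0 on both axes, utp21 and rrp5 lie near the line at 160 min, gar2 and rrp12 lie below it and noc4, whose probes disagree, lies above it.

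None of the 3 box C/D snoRNP genes passed the test of the difference between pairs. With HU at 160 min fib1 was at -0.06 in rad3, -0.0019 in cds1, 0.79 in chk1 and 0.63 in WT, against 0.16, 0.62, 0.56 and 0.89 untreated. Its HU difference was -0.42 ± 0.14 in rad3 and cds1 (adjusted p = 0.024) and -0.018 ± 0.14 in WT and chk1, and the pairs differed by -0.40 ± 0.19 (SE, adjusted p = 0.24, limma). For nop58 the pairs differed by -0.39 ± 0.17 at 160 min and by -0.64 ± 0.21 at 200 min (SE, adjusted p = 0.22 and 0.15, limma). For nop56 the HU difference at 160 min was -0.17 ± 0.17 in rad3 and cds1 and -0.22 ± 0.17 in WT and chk1, and the pairs differed by 0.052 ± 0.24 (SE). The fall of fib1 in rad3 and cds1 lost its call without cds1 (-0.22, adjusted p = 0.42) and without array repeat 1 (-0.34, adjusted p = 0.16).

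The 1 gene called higher with HU at 160 and 200 min was noc4, a processome gene, and that call came from 1 of its 2 probes. In rad3 and cds1 the HU difference of its first probe was 2.29 at 160 min and 3.75 at 200 min, and that of its second probe -0.048 and 0.19. In WT at 200 min the probes gave 1.99 and -0.42. At the step from 0 to 40 min the first probe gave -2.06 and the second 0.81. Across the 82 arrays its probes correlated at -0.40. Which probe reads the transcript was not tested, so no direction is given for noc4.

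The same held for 4 more genes with probes that correlated below 0, namely nop8 (-0.43), utp3 (-0.35), rrp4 (-0.10) and utp13 (-0.061). In nop8 the step from 0 to 40 min was 0.28 by the first probe and -0.73 by the second, and in utp3 it was 0.39 and -0.44. In utp13 the HU difference in rad3 and cds1 at 160 min was 0.82 by the first probe and -0.40 by the second. Probe pairs of the 67 genes correlated at a median of 0.75, with 7.46% below 0, and those of all 4785 genes with 2 probes at 0.65, with 5.46% below 0. For utp21 the probes gave -1.27 and -1.48 in that contrast, and for gar2 -0.94 and -0.92. Without these 5 genes, 57 rose and 2 fell among 62 between 0 and 40 min, and 34 were lower and none higher with HU at 160 min.

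**Figure D5:**
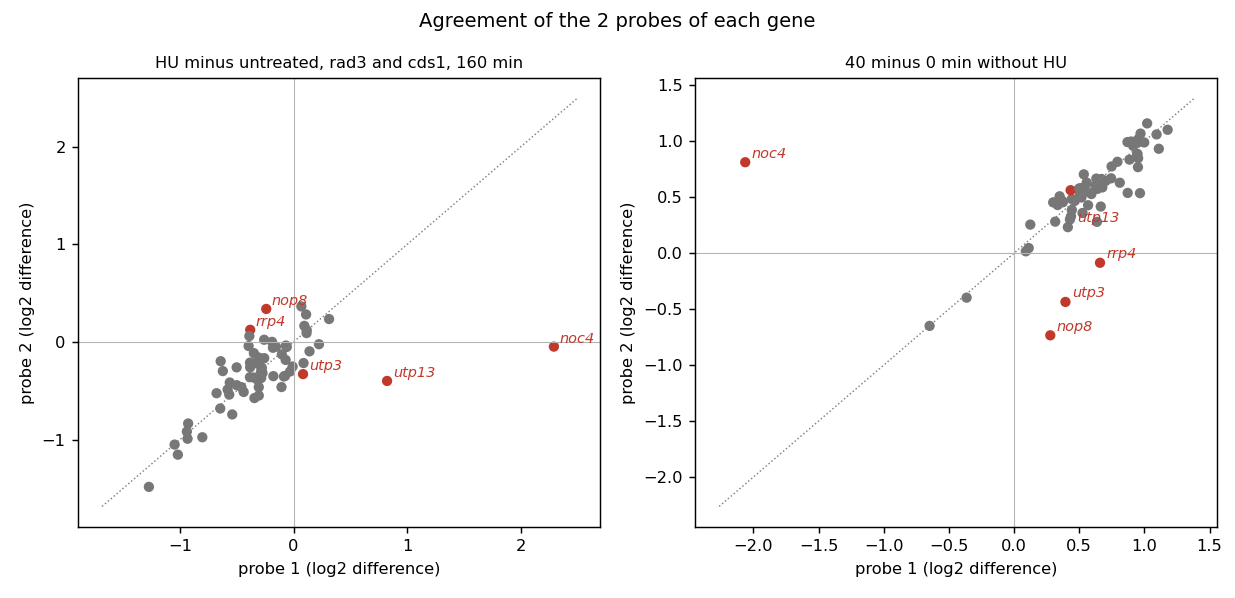
Log2 difference by the second probe against that by the first probe of each of the 67 genes, for HU in rad3 and cds1 at 160 min and for the step from 0 to 40 min without HU; red marks the 5 genes with probes that correlate below 0, and the dotted line marks equal values. Most points follow the line, and noc4 has the largest disagreement in both panels.

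The last comparison set each mutant against WT without HU, as a mean over the times. Each strain is 1 culture here, so strain and culture cannot be told apart, and these results turned on the array repeats. In rad3 6 genes were lower and none higher (6.51% and 3.41% of all genes), in cds1 32 were higher and 2 lower (19.9% and 20.2%), and in chk1 4 were higher and 2 lower (8.32% and 8.62%). The counts in rad3 and chk1 were near or below these shares, so they are no sign of a difference particular to these genes. The median differences from WT were -0.045 in rad3, 0.17 in cds1 and 0.038 in chk1, against -0.024, 0.0055 and 0.0018 over all genes tested. Ribosomal protein genes had medians of -0.29, -0.23 and -0.27 in these mutants, and the other 91 pathway genes -0.089, 0.18 and 0.0091. Without array repeat 1 the count in rad3 was 12, and without array repeat 2 it was 23. The count in cds1 was 11 without array repeat 2, and that in chk1 was 14 without array repeat 1.

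In rad3 the genes were fib1 (-0.55 ± 0.097), gar2 (-0.53 ± 0.12), rrp1 (-0.28 ± 0.076), nop9 (-0.21), rpa34 (-0.21) and utp11 (-0.18). Without array repeat 2 the difference was -0.023 for fib1 (adjusted p = 0.89), -0.22 for gar2 (0.23), -0.26 for rrp1 (0.062) and 0.035 for nop9 (0.75). In cds1 the largest differences were those of utp7 (0.50 ± 0.10), utp16 (0.47 ± 0.060), rrp3 (0.46 ± 0.062), utp5 (0.45 ± 0.061), noc1 (0.44 ± 0.096) and rrp15 (0.43 ± 0.088). The 32 higher genes were 16 of 29 in the processome, 9 of 16 in large subunit assembly, 5 of 8 in the exosome, nop10 (0.23) and noc12 (0.36), and none of the polymerase genes was called (limma, 2 at an unadjusted p under 0.05). The 2 lower genes of cds1 were fib1 (-0.29) and gar1 (-0.40 ± 0.10), which without array repeat 2 had 0.047 and -0.18 (adjusted p = 0.26). In chk1 noc1 (0.37), utp5 (0.24), noc12 (0.24) and rrp40 (0.21) were higher, and fib1 (-0.31) and rrp1402 (-0.26) were lower.

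The DNA translocase gene rrp1 had unlike HU values among the strains, each of them 1 culture. At 160 min with HU it was at -0.57 in rad3, -0.81 in cds1, -0.79 in chk1 and -1.02 in WT, against -0.73, -0.08, -0.04 and -0.18 untreated. The HU difference was 0.16 in rad3, -0.73 in cds1, -0.75 in chk1 and -0.84 in WT, so rad3 stood apart, with a low untreated level. The difference between pairs was 0.51 ± 0.21 and did not pass (SE, adjusted p = 0.17, limma). In WT and chk1 the fall was -0.80 ± 0.15 (SE, adjusted p = 0.0013, limma), and it lost its call without WT (-0.75, adjusted p = 0.067) and without chk1 (-0.84, adjusted p = 0.055). For rrp2 the HU difference was -0.30 ± 0.098 in rad3 and cds1 (adjusted p = 0.027) and 0.047 ± 0.098 in WT and chk1 (SE, limma), and the difference between pairs was -0.34 ± 0.14 (adjusted p = 0.17).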

How the data were processed

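RNA of S. pombe cultures was hybridised to 88 arrays with a sample channel (Cy5, per the labels) and a common reference channel (Cy3). The deposited values, made by the authors, are log2 ratios of Cy5 over Cy3. How background, normalization and centring were handled is not stated in the labels or files, and each array's scale stays unknown. The direction was taken from the dyes and checked on the 3 mutated genes. The rad3 and cds1 genes were below all WT values in every condition of their mutants, while the ranges of the chk1 gene overlapped.

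Gene names came from the platform annotation, updated through a RefSeq gene table used for names only. Of 9858 probes, 9632 had 1 symbol, 44 several and 182 none. Probes with values on under 80% of arrays (35) were left out, and probes of a gene and array repeats were averaged. Tests used limma 3.58.1 in R 4.3.3 (lmFit, eBayes) over all genes with Benjamini-Hochberg adjustment. Without HU, strain and time were fitted over 23 conditions, leaving 14 residual degrees of freedom. For HU, 18 differences (HU minus untreated at matched strain and time) were fitted by pair of strains and time, leaving 8. No replicate cultures are labelled, so the p-values rest on the spread between conditions, which may be technical. The scripts were tested on simulated data.

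The 67 genes, roles, lists and tests were chosen with earlier results of these data known. The list of other pathway genes held 108 symbols, 91 of them measured. Named genes were, per comparison and role, up to 3 called genes with the largest rise and 3 with the largest fall, the largest and smallest values, and fib1, gar1, gar2, nop56, nop58, rrp5, rrp6, rpa2 and utp5 (rpa1 and nop7 were not found by symbol). Any others were named after their values were seen. The planned roles put rrp1 and rrp2 in large subunit assembly. They were given a role of their own as DNA translocases and kept among the 67 genes. Alternatives were other array settings, single probes, left-out repeats and strains, and arrays as samples. Promoter motifs and sequences were not analysed here.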

Additional observations from a re-analysis of the deposited data

Results flagged for a closer look

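The HU difference in rad3 and cds1 minus that in WT and chk1 passed its own test for 3 of the 67 genes at 160 min, gar2 (-0.692), rrp12 (-0.58) and noc4 (0.74), and for 2 at 200 min, gar2 (-0.898) and noc4 (1.18), where WT stands alone in its pair. Of all genes tested 5.01% passed at 160 min and 1.52% at 200 min, so the counts are no sign of a response particular to these genes. In gar2 both probes fell and the sign held in each alternative run, but its call was lost at both times without array repeat 1, rad3 or cds1. The call of rrp12 was lost without either array repeat or any 1 strain. In noc4 the values rest on 1 of 2 probes that correlate at -0.40, and the second probe alone gave -0.069 at 160 min. The cause of these differences was not tested.

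The HU difference of rrp1 at 160 min set rad3 (0.16) apart from cds1 (-0.73), chk1 (-0.75) and WT (-0.84): its gap to the nearest of the others was 0.889 of the whole range of the 4 strains, which is past the critical value of Dixon's test. It was 1 of 21 groups of 4 examined in this way, and chance marks about 1 in 20.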

How the results depend on the processing

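Of the counts recomputed under alternatives, 258 stayed within 1.5 times the reported count and 92 did not. The share of all genes called was not counted under the alternatives. Leaving out a strain also leaves fewer conditions in the fit, so a lower count there may reflect less precision. Values of single genes were recomputed for a chosen set of genes and contrasts. Of these, 87 lost their call and 104 gained one with the sign kept. A further 15 turned sign with a call in at least 1 of the 2 runs, and only these turns are named below. The other 2714 stayed on their side of the threshold, and they include sign changes of values that passed in neither run. Leaving out 1 array repeat or 1 strain gave 57 to 59 genes higher at 40 min, 24 to 35 lower with HU at 160 min in both pairs, 60 to 63 changed over time and 34 to 44 changed after 0 min. It gave 0 to 11 lower at 120 min, 0 to 1 at 160 min and 1 to 5 at 200 min without HU. With HU it gave 0 to 1 at 120 min, 13 to 24 lower at 200 min in both pairs, 5 to 20 (WT and chk1) and 13 to 27 (rad3 and cds1) at 160 min, and 4 to 6 (WT) and 8 to 23 (rad3 and cds1) at 200 min. Differences between pairs numbered 0 to 2 at 160 min and 1 to 2 at 200 min, and differences from WT 4 to 23 in rad3, 11 to 35 in cds1 and 6 to 14 in chk1. Over 946 pairs of conditions the deviations of same-numbered arrays correlated at a median of 0.0052. The range was -0.82 to 0.97, so in some pairs of conditions same-numbered arrays deviated together and in others in opposite directions. Pairs within a strain were not set apart from pairs between strains, and an effect shared by same-numbered arrays of a strain was not tested. Arrays as samples with the replicate block gave 5 genes changed at 80 min, 21 lower at 120 min and 15 at 200 min, 1, 1 and 8 changed by HU at 40, 80 and 120 min, 36 lower in WT and chk1 at 160 min and 15 in WT at 200 min, 10 and 5 differences between pairs, 16 lower in rad3 and 10 changed in chk1; without the block these were the same except 35 and 16 in place of 36 and 15. Quantile normalization gave 1 gene lower at 40 min, 14 at 200 min and 0 differences between pairs at 200 min. With the matching chk1 arrays kept, 20 were lower at 120 min, 5 changed by HU at 120 min, 43 (both pairs) and 33 (WT and chk1) were lower with HU at 200 min, 4 differed between pairs at 200 min and 1 changed in chk1. The first probe alone gave 7, 2 and 3 lower at 120, 160 and 200 min, 0 changed by HU at 120 min, 12 lower in WT and chk1 at 160 min and 1 difference between pairs at 200 min. The second probe alone, the set without discordant probes and the fit without 0 min were chosen after seeing the data. The second probe alone gave 5, 0 and 3 lower at 120, 160 and 200 min, 0 changed by HU at 120 min, 9 lower in WT and chk1 at 160 min, 2 in WT at 200 min, 1 and 1 differences between pairs, 3 lower in rad3 and 21 higher in cds1. Without the 5 genes whose probes correlate below 0, 2 were lower at 40 min, 0 at 160 min and 1 differed between pairs at 200 min. Without the 0 min conditions 10 were lower at 200 min and 11 in rad3. Signs turned by the second probe alone for noc4 at 40 min (0.81), noc4 with HU at 160 min (-0.048 in rad3 and cds1, -0.013 in both pairs, -0.069 between pairs) and at 200 min in WT (-0.42), and utp3 in cds1 (-0.32). They turned by the first probe alone for nop8 and utp3 at 40 min (0.28 and 0.39) and nop8 with HU at 160 min (-0.40 in WT and chk1, -0.32 in both pairs). Between the fits without array repeat 1 and without array repeat 2 the sign differed for noc4 (-0.42 and 0.57), nop56 (1.02 and -0.80), utp5 (0.40 and -0.31) and nop9 (-0.46 and 0.035) in rad3 and for fib1 in cds1 (-0.62 and 0.047). The cause of these changes was not tested. The values are ratios alone, so how far each probe stood above background was not used here.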
